A study of Homo sapiens with 24 samples.

Results

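The 40S subunit of the human ribosome carries 1 copy of each small-subunit protein on its 18S rRNA, and 32 genes that encode these proteins were followed here through RNA and ribosome footprints. They were taken by Ensembl identifier, 32 of the 20426 genes that the tables of both assays list, and were named through the identifier list that defined the set. Each library was either INPUT, the RNA of the lysate, or RPF, ribosome-protected fragments, and each population had 2 of each. The populations were the colon cancer lines HCT116, HCT15 and SW620, all labelled WT, and 841-CON, labelled as normal colon epithelium. The other 2 populations were forms of HCT15, titled COPS7B and PLVX. The labels give COPS7B overexpression as the genotype of the COPS7B cells and WT as that of the PLVX cells. All 24 libraries came from cells held in cycloheximide at 100 µg/mL for 10 minutes. Each line was 1 line in its own culture medium, with SW620 in an air incubator, so line and medium cannot be told apart. Nothing in the labels says that the 2 libraries of a group are separate cultures. The p-values therefore cover only the variation among the libraries at hand, part of which may be technical.

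Small-subunit proteins are needed in equal numbers, and each enters the subunit during its assembly in the nucleolus and cytoplasm. Proteins of the head, body and platform hold the rRNA around the decoding centre and the mRNA channel. Their mRNAs typically belong to the TOP class, which begins with a C and a tract of pyrimidines and whose translation follows growth signalling through mTOR and LARP1. Changes in several of these genes cause Diamond-Blackfan anaemia, a failure of red cell production.

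The annotated starts are shown because the tract at the first base is what defines the TOP class. RefSeq (GRCh38.p14) gave a start region for 25 of the 32 genes. In 19 of the 25 (76.0%) an annotated start was a C followed by at least 4 pyrimidines, read on the strand of the gene, against 4.07% of all 35116 start regions in the same table. In the lines below, 5 bases before the start precede the first 20 bases from it, and capitals mark the pyrimidine tract. The first 8 genes have such a start (for RPS27A at the third of 3 annotated starts) and the last 4 do not.
RPSA, chr3:39406715-39406739, plus strand: cctgtCTTTTCCgtgctacctgcag
RPS3, chr11:75399513-75399537, plus strand: cacttCCTTTCCTTTCagcggagcg
RPS12, chr6:132814564-132814588, plus strand: gaggcCTCTTTCCCTgccgccgccg
RPS18, chr6:33272070-33272094, plus strand: ccgctCTCTCTTCCacaggaggcct
RPS21, chr20:62387098-62387122, plus strand: tgcttCCTTTCTCTCTCgcgcgcgg
RPS25, chr11:119018324-119018348, minus strand: gcttcCTTTTTgtccgacatcttga
RPS27A, chr2:55232683-55232707, plus strand: tcttcCTTTTCgatccgccatctgc
FAU, chr11:65122115-65122139, minus strand: tcttcCTCTTTCTCgactccatctt
RPS4X, chrX:72277229-72277253, minus strand: gccccaatttctacgcgcaccggaa
RPS7, chr2:3575255-3575279, plus strand: tcctcctcgcgctgtttccgcctct
RPS15, chr19:1438391-1438415, plus strand: cggaccaaagcgatctcttctgagg
RPS26, chr12:56041913-56041937, plus strand: acctcgattttcttccgccatccgg
RPS26, RPS28, RPS29, RPS4X, RPS7 and RPS15 were the 6 genes with a start region and no such tract at its first base. Both classes held genes that moved in the comparisons below, and an annotated start need not be the one these cells used.

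Depth in the shared genes ran between 960395 and 6596429 counts per INPUT library. RPF libraries held between 997844 and 4679279 counts, except those of SW620, with 98043 and 84262. Pairs of replicates differed by a chi-square per gene between 4.12 and 63.9 in 8 groups. In the other 4 groups, HCT116 INPUT and RPF, 841-CON RPF and COPS7B RPF, the value lay between 1.39 and 1.70, so these pairs differed by little more than counting noise, and counts of calls are also given with each of these pairs summed to 1 library. The files pair no identifiers with names, so epithelial markers and the COPS7B level were not analysed here, and neither the tissue nor the overexpression label was checked.

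The 32 genes took a larger share of the counts in each cancer line than in 841-CON. In INPUT they held 2.96% and 3.07% in HCT116, 2.16% and 1.77% in HCT15 and 4.60% and 2.98% in SW620, against 0.791% and 1.14% in 841-CON. In RPF they held 2.92% and 2.91% in HCT116, 1.99% and 2.30% in HCT15 and 3.37% and 3.75% in SW620, against 0.671% and 0.679% in 841-CON. RPS21 alone had 1992 counts over both SW620 RPF libraries, in which the 32 genes held 3305 and 3159. In share, every cancer-line library lay above every 841-CON library of its assay. With 2 libraries a group no exact test of this share can reach the 5% level, so it is given as a description. Over all 60623 genes of the INPUT tables the mean share was lower in every population, at 2.16% in SW620, against 0.753% in 841-CON. A share of counts does not tell a gene that each cell expresses more from a smaller total of other RNA.

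**Figure D1:**
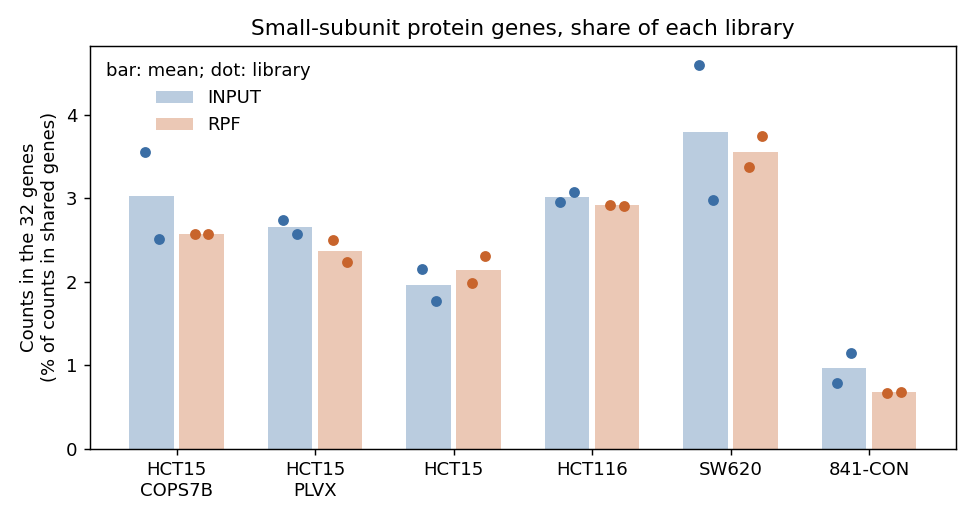
Share of shared-gene counts in the 32 genes, as a percent on the vertical axis, for each population. Bars are means of 2 libraries and dots the libraries, INPUT left and RPF right. All cancer-line populations lie above 841-CON, whose libraries lie between 0.671% and 1.14%.

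INPUT RNA of these genes was higher in the cancer lines. Of the 32 genes, 30 passed the filter on low counts, and RPS10 and RPS28 did not. Called means an adjusted p under 0.05 by edgeR's quasi-likelihood test with Benjamini-Hochberg adjustment over all 11938 genes. In HCT116 against 841-CON 23 of the 30 rose and none fell, in a comparison in which 19.0% of all genes tested rose and 21.0% fell. In HCT15 8 rose and none fell, against 16.7% of all genes that rose and 18.7% that fell. In SW620 23 rose and none fell, against 21.9% of all genes that rose and 22.5% that fell. The median fitted log2 change was 1.41 in HCT116, 0.89 in HCT15 and 1.96 in SW620, against -0.04, -0.02 and 0.03 over all genes tested, in the same order. All 3 comparisons share the 841-CON libraries. With close pairs summed, 10 of 31 genes tested rose in HCT116, against 10.9% of all genes. Without trimmed-mean scaling 19 of 30 rose in HCT15, against 2705 of 11938 genes, and the median over all genes was 0.24. With only the libraries of the comparison in the fit, 3 of 27 rose there, against 831 of 9987 genes.

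RPS2, RPS12, RPS16, RPS18, RPS21 and FAU rose in INPUT in all 3 lines, and the calls of RPS2, RPS18 and RPS21 were kept in all 12 alternatives in each line. In HCT15 the call of RPS16 was kept in 6 of 12, that of FAU in 8 and that of RPS12 in 9. RPS16 was lost there without 841-CON INPUT replicate 2 or either HCT15 INPUT library, FAU without 841-CON INPUT replicate 2 or HCT15 INPUT replicate 1, and RPS12 without replicate 1 of either. RPS26 was also called in all 3 lines but had 1 count in all in 841-CON, and it is described with the genes of few counts. CPM, the unit of the levels below, is a gene's count relative to the scaled size of its library. RPS18 (ENSG00000231500) sits in the head of the subunit and contacts the large subunit. Its INPUT level was 1290 and 1366 CPM in HCT116, 726 and 765 CPM in HCT15 and 1823 and 1081 CPM in SW620, against 108 and 303 CPM in 841-CON. All 6 cancer-line libraries lay above both 841-CON libraries. The fitted log2 change was 2.68 ± 0.43 (SE) in HCT116, 1.85 ± 0.41 in HCT15 and 2.81 ± 0.43 in SW620 (edgeR adjusted p = 7.65e-05, 0.00182 and 4.53e-05).

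RPS2 lines the channel by which mRNA enters the subunit. It was at 3483 and 3819 CPM in HCT116 INPUT, 2235 and 1570 CPM in HCT15 and 2433 and 1822 CPM in SW620, against 476 and 674 CPM in 841-CON. The groups did not overlap, and the log2 change was 2.66 ± 0.34 in HCT116, 1.72 ± 0.33 in HCT15 and 1.89 ± 0.33 in SW620. RPS12, a protein of the head, was at 1456 and 1443 CPM in HCT116, 647 and 441 CPM in HCT15 and 3710 and 2107 CPM in SW620, against 142 and 328 CPM in 841-CON. SW620 was highest, with a log2 change of 3.62 ± 0.40 (edgeR adjusted p = 1.56e-06), beside 2.62 ± 0.38 in HCT116 and 1.20 ± 0.36 in HCT15.

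RPS24 and RPS3A are both on the body and platform. Among genes with at least 10 counts in every INPUT library compared, they were in the 3 largest called INPUT changes in SW620. RPS24 was at 588 and 622 CPM in HCT116, 625 and 515 CPM in HCT15 and 2224 and 1427 CPM in SW620, against 98.1 and 417 CPM in 841-CON. RPS3A was at 259 and 290 CPM in HCT116, 228 and 121 CPM in HCT15 and 697 and 302 CPM in SW620, against 31.4 and 106 CPM in 841-CON. Both genes differed 3-fold or more between the 841-CON replicates, and replicate 2 was the higher. RPS6, the substrate of S6 kinase, was at 1737 and 1867 CPM in HCT116, 1399 and 1094 CPM in HCT15 and 3124 and 2031 CPM in SW620, against 573 and 1136 CPM in 841-CON. It rose in HCT116 (log2 1.07 ± 0.40) and SW620 (1.59 ± 0.41), while HCT15 overlapped 841-CON. The HCT116 call was kept in 1 of 4 omissions of a library, that of 841-CON replicate 2, and the SW620 call was lost without replicate 1 of either population. Its footprints were at 2432 and 2470 CPM in HCT116, 1451 and 2712 CPM in HCT15 and 1368 and 2929 CPM in SW620, against 803 and 677 CPM in 841-CON.

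RPS20, RPS27 and RPS29 were not called in INPUT in any line. RPS20, of the head, was at 1999 and 1982 CPM in HCT116, 773 and 595 CPM in HCT15 and 1655 and 689 CPM in SW620, against 1241 and 815 CPM in 841-CON. Both HCT15 libraries lay below both 841-CON libraries, and the log2 change of -0.59 ± 0.40 did not pass the test (edgeR adjusted p = 0.271). Footprints of RPS20 were called higher in HCT15 (log2 1.29 ± 0.41, edgeR adjusted p = 0.0136), a call kept in 7 of 12 alternatives. TE of RPS20 was called higher there too (1.87 ± 0.57, edgeR adjusted p = 0.0297), kept in 7 of 16. Neither was called in HCT116 or SW620. RPS19, the gene most often affected in Diamond-Blackfan anaemia, was called in HCT116, a call lost without any 1 of the 4 libraries and with close pairs summed. Its log2 change was 1.18 ± 0.38 in HCT116 and -0.20 ± 0.38 in HCT15. Its INPUT level was 3034 and 3107 CPM in HCT116, 1357 and 1010 CPM in HCT15 and 3157 and 1105 CPM in SW620, against 1293 and 1426 CPM in 841-CON. Its footprints were at 2265 and 2310 CPM in HCT116, 1877 and 2014 CPM in HCT15 and 1438 and 1614 CPM in SW620, against 867 and 804 CPM in 841-CON. In an F test of the 3 cancer lines against each other, 16 of the 30 genes differed in INPUT, against 46.0% of all genes tested, a share near that of the 30. With close pairs summed 5 of 31 differed, against 17.9% of all genes.

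**Figure D2:**
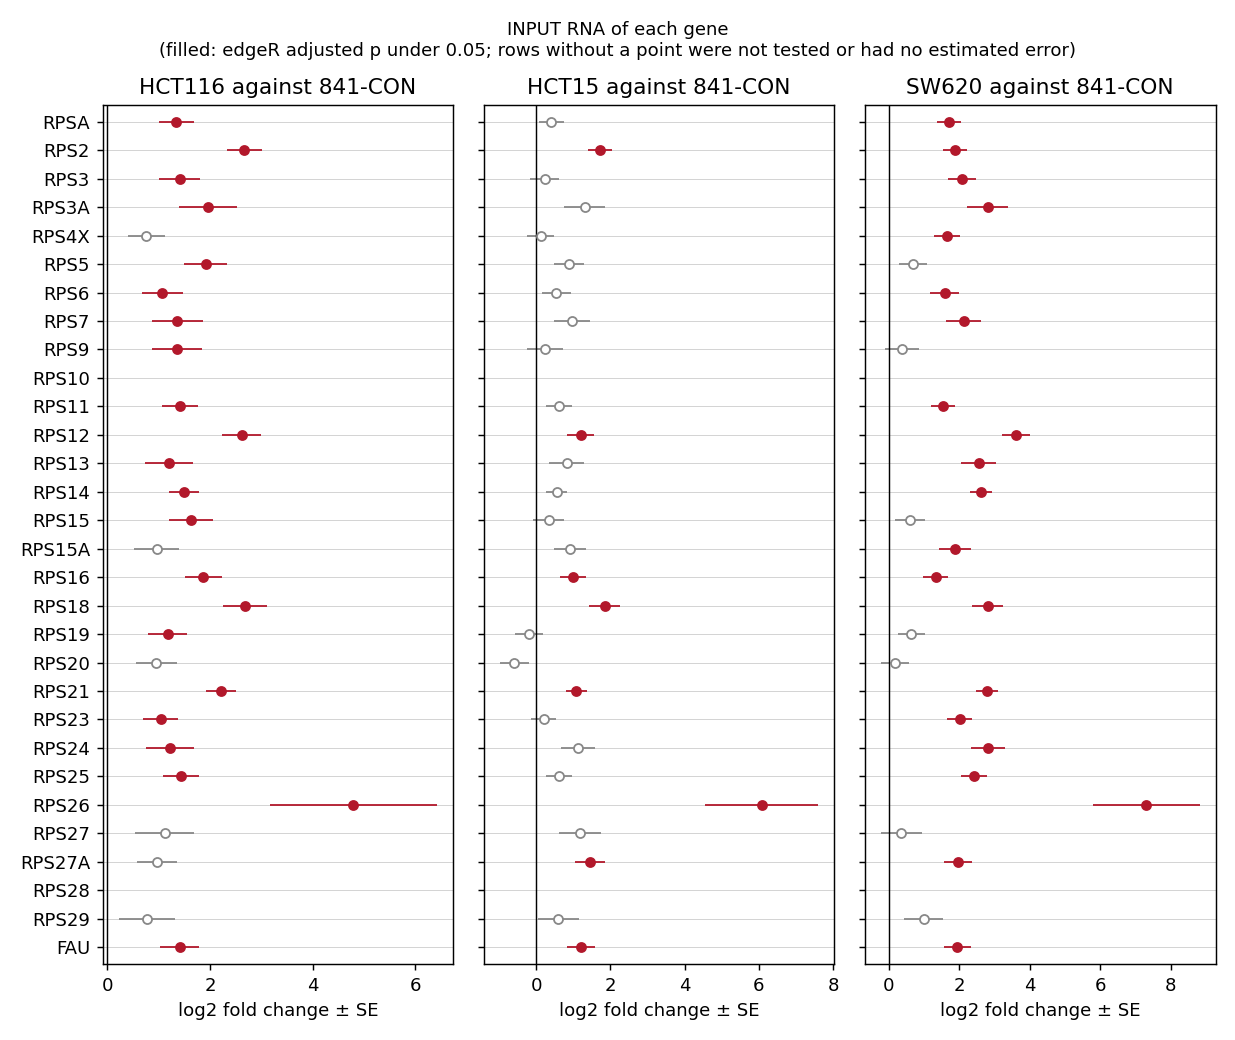
Fitted log2 fold change of INPUT RNA with its SE (horizontal axis) in HCT116, HCT15 and SW620 against 841-CON, with 28 genes drawn of the 30 tested, since results of some single genes are not reported. Filled points passed edgeR's adjusted p threshold. All of them lie to the right of 0, with 22 drawn for HCT116, 8 for HCT15 and 21 for SW620.

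Footprints of these genes were also higher in the cancer lines. In RPF, 20 of 30 rose and 1 fell in HCT116, where 22.6% of all genes tested rose and 36.7% fell. In HCT15 24 rose and none fell (28.9% of all genes rose and 21.1% fell), and in SW620 16 rose and none fell (18.9% rose and 18.9% fell). The gene that fell was RPS27A in HCT116. Both libraries of the line lay above both of 841-CON for 28 of the 30 genes in HCT116, 25 in HCT15 and 24 in SW620, against 33.9%, 39.7% and 26.3% of all genes in the same order. With close pairs summed 8 of 31 rose in HCT15, against 13.3% of all genes.

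Translation efficiency (TE), the footprint change beyond the INPUT change, did not move one way across the set. The test took genes that had passed the filter on low counts in INPUT and in RPF. It also required INPUT counts that averaged 10 or more in each of the populations compared. Both were met by 28 of the 32. For HCT116 5 rose and 4 fell, where 15.1% of all genes tested rose and 30.6% fell. In HCT15 6 rose and none fell, against 11.6% and 5.08% of all genes. In SW620 3 rose and 7 fell, against 8.36% and 9.7% of all genes. Median log2 TE changes were 0.22, 0.86 and 0.02 in HCT116, HCT15 and SW620, against -0.59, 0.30 and -0.28 over all genes. The SW620 median lay between -0.51 and 0.48 over 16 alternatives and was below 0 in 9 of them, and the HCT116 median was -0.01 by DESeq2. With close pairs summed the calls dropped to 3 in HCT116, 0 in HCT15 and 1 in SW620, where 21.4%, 2.51% and 4.06% of all genes were called. With only the libraries of each comparison in the fit they came to 13 of 28, 0 of 27 and 1 of 26. Of all genes tested in those fits, 3839 of 7614, 0 of 8517 and 304 of 7284 were called. The split into higher and lower calls moved with the scaling. It was 7 and 2 in HCT116 and 5 and 2 in SW620 without trimmed-mean scaling. By DESeq2 it was 5 and 6 in HCT116 and 7 and 7 in SW620. The split over all genes moved as well. Without the scaling 1540 rose and 2375 fell of 8502 in HCT116, and 906 and 497 of 8396 in SW620. With DESeq2 1197 rose and 3001 fell in HCT116, and 1148 and 624 in SW620.

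RPSA was called higher in TE in all 3 lines. RPSA (ENSG00000168028) is a protein of the platform, also known as the laminin receptor precursor. Its footprints stood at 993 and 1050 CPM in HCT116, 326 and 200 CPM in HCT15 and 959 and 1015 CPM in SW620, against 73.6 and 58.1 CPM in 841-CON. Its INPUT was at 552 and 549 CPM in HCT116, 319 and 254 CPM in HCT15 and 738 and 692 CPM in SW620, against 280 and 157 CPM in 841-CON. Footprints separated the groups fully, and INPUT overlapped in HCT15. The log2 TE change was 2.61 ± 0.49 in HCT116, 1.58 ± 0.48 in HCT15 and 2.18 ± 0.49 in SW620 (edgeR adjusted p = 0.00033, 0.0305 and 0.00558). The HCT116 call was kept in all 16 alternatives and the SW620 call in 14, but the HCT15 call in 7 of 16. It was kept in 2 of 8 omissions of a library, those of 841-CON INPUT replicate 2 and HCT15 RPF replicate 2.

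RPS3, which lines the entry channel and also has a role in DNA repair, rose in TE in HCT116 (log2 1.61 ± 0.55) and HCT15 (2.02 ± 0.55). Its footprints were at 2121 and 2084 CPM in HCT116, 1303 and 1169 CPM in HCT15 and 1577 and 2822 CPM in SW620, against 259 and 260 CPM in 841-CON. INPUT was at 1911 and 2011 CPM in HCT116, 917 and 819 CPM in HCT15 and 3645 and 2663 CPM in SW620, against 1079 and 405 CPM in 841-CON. The HCT116 call was kept in 1 of 8 omissions of a library, that of 841-CON INPUT replicate 2. The HCT15 call was lost without either 841-CON RPF library or INPUT replicate 1 of either population.

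RPS3A and RPS7 had almost no footprints in 841-CON. RPS3A (ENSG00000145425) was counted 200 and 166 times in HCT116 RPF, 3 and 0 times in HCT15 and 4 and 3 times in SW620, against 0 and 1 time in 841-CON. HCT116 stood apart from the other lines, although all 4 populations had INPUT counts of at least 33. From pooled counts, TE in HCT116 was 180-fold that in 841-CON, with a 95% counting interval between 32.1 and 7132 that covers counting error only, and the call held in all 16 alternatives (edgeR adjusted p = 0.000157). RPS7, which binds MDM2 when free of the ribosome, was counted 14 and 8 times in HCT116 RPF, 50 and 47 times in HCT15 and 6 and 2 times in SW620, against 3 and 0 times in 841-CON. The HCT15 change passed the test (log2 3.87 ± 1.00), at a pooled ratio of 12.1 with a counting interval between 4.00 and 59.5, and was lost without 841-CON RPF replicate 2. INPUT of RPS7 was at 263 and 310 CPM in HCT116, 297 and 134 CPM in HCT15 and 619 and 358 CPM in SW620, against 82.8 and 138 CPM in 841-CON.

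RPS15 and RPS15A rose in TE as well. RPS15, of the head near the decoding centre, had footprints at 282 and 345 CPM in HCT116, 493 and 419 CPM in HCT15 and 174 and 374 CPM in SW620, against 59.4 and 49.6 CPM in 841-CON. Its INPUT was at 1084 and 1150 CPM in HCT116, 520 and 391 CPM in HCT15 and 706 and 398 CPM in SW620, against 313 and 410 CPM in 841-CON. TE passed the test in HCT15 alone (log2 2.73 ± 0.61, edgeR adjusted p = 0.00543). RPS15A, of the body, was counted 130 and 104 times in HCT116 RPF, 123 and 600 times in HCT15 and 0 and 1 time in SW620, against 15 and 20 times in 841-CON. INPUT of RPS15A was at 166 and 183 CPM in HCT116, 198 and 137 CPM in HCT15 and 442 and 220 CPM in SW620, against 88.5 and 90.7 CPM in 841-CON. TE rose in HCT116 (2.59 ± 0.66) and HCT15 (2.67 ± 0.66), and the HCT15 call was lost without 841-CON RPF replicate 1. Its TE differed among the 3 lines (edgeR adjusted p = 0.000756).

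RPS21 footprints stood high in SW620, and TE of RPS27 was called higher in SW620 and HCT116. RPS21 (ENSG00000171858), a small protein of the body, had footprints at 1300 and 1280 CPM in HCT116, 1872 and 1667 CPM in HCT15 and 10220 and 8754 CPM in SW620, against 487 and 435 CPM in 841-CON. SW620 lay several times above every other population, and the log2 TE change was 1.58 ± 0.41 there (edgeR adjusted p = 0.0124). INPUT of RPS21 was at 1819 and 1384 CPM in SW620, against 235 and 229 CPM in 841-CON. RPS27, a zinc-binding protein of the platform, was counted 103 and 112 times in HCT116 RPF, 15 and 72 times in HCT15 and 4 and 26 times in SW620, against 17 and 17 times in 841-CON. In CPM that was 34.9 and 278 in SW620, against 6.35 and 13.2 in 841-CON, and the SW620 change of 3.66 ± 0.94 came to 1.53 (edgeR adjusted p = 0.417) without SW620 RPF replicate 2. The call was also lost without 841-CON RPF replicate 1 or SW620 INPUT replicate 2. Footprints of RPS27 in HCT116 averaged 107 CPM (SD 4.91), and its TE was called higher there as well (log2 2.4). This HCT116 call was kept in 8 of 16 alternatives, and in 2 of 8 omissions of a library. INPUT of RPS27 was at 109 and 104 CPM in HCT116, 137 and 86.0 CPM in HCT15 and 78.6 and 48.5 CPM in SW620, against 35.2 and 60.7 CPM in 841-CON.

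Lower TE was called for RPS12 and RPS18 in both HCT116 and SW620. For RPS18 footprints were at 160 and 162 CPM in HCT116, 291 and 295 CPM in HCT15 and 166 and 160 CPM in SW620, against 93.8 and 82.1 CPM in 841-CON. Footprints of RPS18 were thus higher in every line than in 841-CON, by less than its INPUT was. The log2 TE change was -1.81 ± 0.58 in HCT116 and -1.92 ± 0.62 in SW620. For RPS12 footprints were at 374 and 371 CPM in HCT116, 309 and 258 CPM in HCT15 and 566 and 716 CPM in SW620, against 164 and 164 CPM in 841-CON. The log2 TE change was -1.44 ± 0.51 in HCT116 and -1.66 ± 0.52 in SW620. The SW620 calls of RPS18 and RPS12 and the HCT116 call of RPS12 were lost without trimmed-mean scaling. Over 8 omissions of a library, both SW620 calls were kept in 2, those of INPUT replicate 2 of either population, and the HCT116 call of RPS12 in 1, that of 841-CON INPUT replicate 2. The HCT116 call of RPS18 was lost without HCT116 RPF replicate 1.

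RPS25 and FAU fell in TE in SW620. RPS25 (ENSG00000118181), needed for initiation at some internal ribosome entry sites, had footprints at 585 and 593 CPM in HCT116, 366 and 670 CPM in HCT15 and 392 and 342 CPM in SW620, against 396 and 396 CPM in 841-CON. Its INPUT was at 518 and 533 CPM in HCT116, 297 and 300 CPM in HCT15 and 1308 and 773 CPM in SW620, against 130 and 255 CPM in 841-CON. INPUT was higher in SW620 while footprints lay just below 841-CON, a log2 TE change of -2.53 ± 0.51 (edgeR adjusted p = 0.00311). The call was kept in 15 of 16 alternatives, including each omission of 1 library. RPS13 and RPS24 fell in SW620 too, by -2.11 ± 0.68 and -2.16 ± 0.66, and over the omissions of a library both calls were likewise kept in those of INPUT replicate 2 of either population and lost in the others.

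FAU (ENSG00000149806) and RPS27A (ENSG00000143947) are made as fusions, FAU to a ubiquitin-like protein and RPS27A to ubiquitin itself. FAU had footprints at 746 and 730 CPM in HCT116, 932 and 1137 CPM in HCT15 and 383 and 321 CPM in SW620, against 478 and 454 CPM in 841-CON. Its INPUT was at 294 and 302 CPM in HCT116, 366 and 150 CPM in HCT15 and 355 and 511 CPM in SW620, against 126 and 99.7 CPM in 841-CON. In SW620 INPUT was higher and footprints lower than in 841-CON (log2 TE -2.35 ± 0.54, edgeR adjusted p = 0.00627, kept in 15 of 16 alternatives).

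RPS27A had footprints at 11.0 and 6.88 CPM in HCT116, 87.8 and 70.3 CPM in HCT15 and 78.4 and 64.1 CPM in SW620, against 34.0 and 34.9 CPM in 841-CON. Its INPUT was at 330 and 392 CPM in HCT116, 589 and 419 CPM in HCT15 and 737 and 708 CPM in SW620, against 90.4 and 275 CPM in 841-CON. HCT116 was the lowest population in footprints, and the log2 change there was -1.94 ± 0.49 in footprints and -2.90 ± 0.63 in TE (edgeR adjusted p = 0.00226 and 0.00111). In HCT15 footprints rose by 1.19 ± 0.41, a call kept in 6 of 12 alternatives and lost by DESeq2 and without either 841-CON RPF library or HCT15 RPF replicate 1. The HCT116 TE call was kept in all 16 alternatives.

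**Figure D3:**
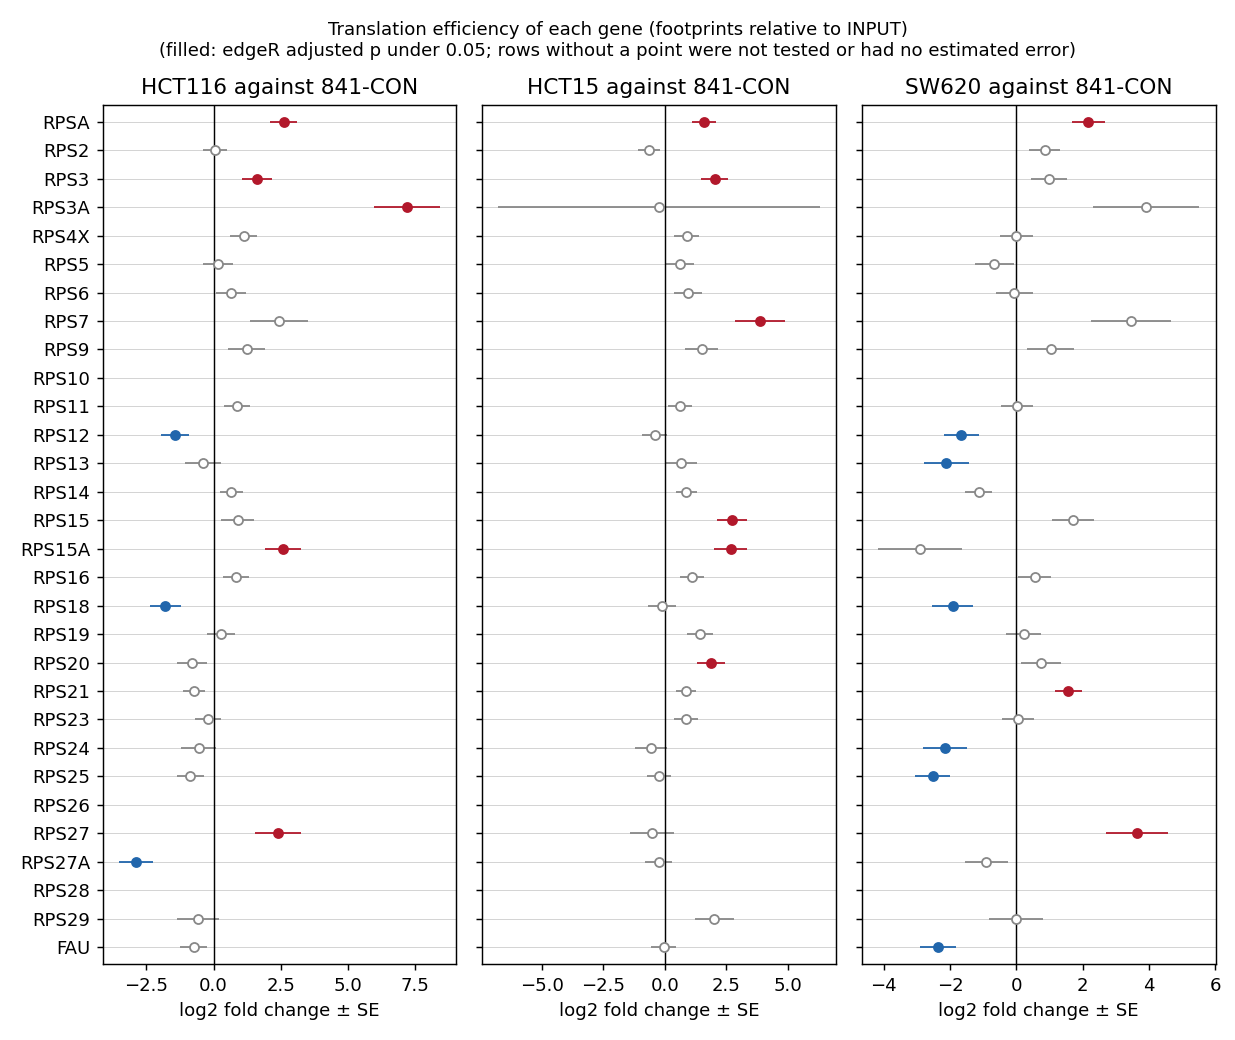
Fitted log2 TE change with its SE (horizontal axis) in HCT116, HCT15 and SW620 against 841-CON, with 27 genes drawn of the 28 tested, since results of some single genes are not reported. Filled points passed edgeR's adjusted p threshold, with higher and lower calls drawn for HCT116 (5 and 3) and SW620 (3 and 6) and higher calls alone for HCT15 (6).

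**Figure D4:**
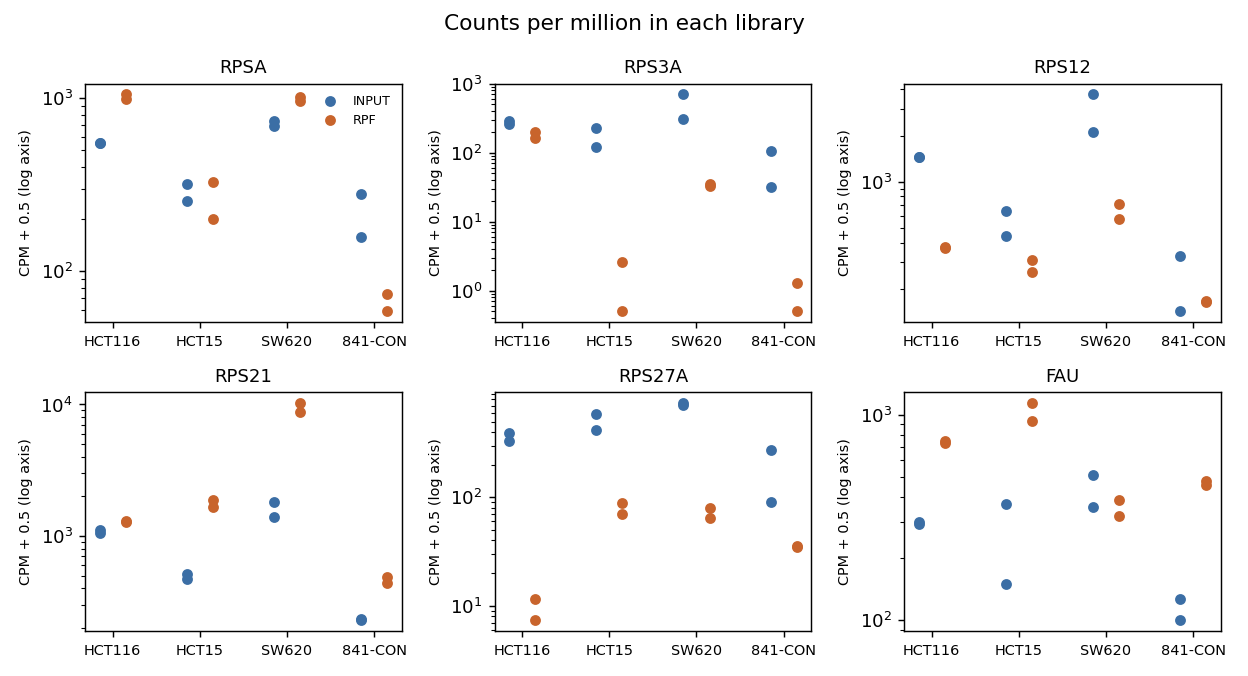
CPM plus 0.5 on a log axis for 6 genes, each dot 1 library, INPUT and RPF side by side in HCT116, HCT15, SW620 and 841-CON. RPS3A footprints stand high in HCT116, RPS21 footprints in SW620 and RPS27A footprints low in HCT116.

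In an F test among the 3 cancer lines, TE differed for 15 of the 30 genes, against 52.7% of all genes tested, a share near that of the 30. With close pairs summed 5 of 30 differed, against 23.3% of all genes. By role, the 14 proteins of the head and the 18 of the body and platform differed in their counts in SW620, with 0 higher and 3 lower of 11 tested in the head and 3 higher and 4 lower of 17 tested in the body and platform, beside 8.36% higher and 9.7% lower of all genes. In HCT116 the head had 1 higher and 3 lower of 11 and the body and platform 4 higher and 1 lower of 17, beside 15.1% higher and 30.6% lower of all genes. In HCT15 the head had 3 higher and 0 lower of 11 and the body and platform 3 higher and 0 lower of 17. Of all genes 11.6% were higher and 5.08% lower in that line. The difference between head and body was not tested. The list of 10 genes for Diamond-Blackfan anaemia includes RPS7, RPS10, RPS19, RPS24 and RPS26, and 8 of the 10 were tested in INPUT. Of these 8, 4 rose in HCT116, 5 in SW620 and 1 in HCT15, and none fell. Of all genes 19.0%, 21.9% and 16.7% rose in those lines. RPS26, nearly without counts in 841-CON, was among the calls in each line and was the only one in HCT15. It passed the filter on low counts through the groups where it is high. Of the 18 tested genes with a pyrimidine tract at an annotated start, TE rose for 4 and fell for 3 in HCT116, rose for 2 in HCT15, and rose for 3 and fell for 6 in SW620. Of the 4 tested genes with a start region and no tract, TE rose for 2 in HCT15, RPS7 and RPS15, and none was called in HCT116 or SW620. The difference between these classes was not tested. Of all genes tested 15.1% rose and 30.6% fell in TE in HCT116, 11.6% and 5.08% in HCT15, and 8.36% and 9.7% in SW620.

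A few genes had close to no counts. RPS10, which is ubiquitinated on collided ribosomes, had INPUT counts of 0 and 0 in HCT116, 8 and 22 in HCT15 and 21 and 29 in SW620, against 1 and 1 in 841-CON. It had at most 45 INPUT counts and 11 RPF counts in any library of the series. RPS28 had 0 RPF counts in all 8 libraries of HCT116, HCT15, SW620 and 841-CON, beside INPUT counts of 12 to 840. RPS26, which contacts mRNA upstream of its start codon, had INPUT counts of 7 and 15 in HCT116, 44 and 44 in HCT15 and 39 and 44 in SW620, against 1 and 0 in 841-CON, and at most 11 RPF counts in any library of the series. With 1 count in 841-CON no fold is given for RPS26, which passed the filter through the groups where it is high. Its HCT116 call was kept in 6 of 11 alternatives and lost without INPUT replicate 2 of either population. These genes have many near-identical copies. RefSeq names 697 pseudogenes after the 32 genes, with 59 for RPS26, 31 for RPS10 and 9 for RPS28. Across the 32 genes the number of pseudogenes and the footprint count per INPUT count, pooled over all libraries, had a Spearman rho of -0.558, a description over genes that share libraries. The tables of PLVX and COPS7B set between 16.6% and 27.2% of reads apart as aligned to more than 1 place. The tables of the other populations hold no such line, and the part of these reads in the levels was not tested.

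COPS7B overexpression was set against PLVX, both in HCT15, to ask what the COPS7B construct does to translation. No TE change was called for any of the 30 genes, and by edgeR none of 9542 genes was called (0% called), with 132 at an unadjusted p under 0.05 and none of them among the 30. With the compared libraries alone 706 of 9522 genes had an unadjusted p under 0.05, and again none was called. DESeq2 called none of the 30 either. Such an absence of calls does not show that TE was unchanged. Fitted log2 TE changes included -0.85 ± 0.48 for RPSA and 2.54 ± 2.10 for RPS26, and their median was -0.14 against -0.03 over all genes. This median was above 0 without COPS7B INPUT replicate 1 (0.04) or PLVX RPF replicate 1 (0.10). In INPUT 1 of the 30 was called, RPS4X, which rose, in a comparison where 17.5% of all genes were called. RPS4X (ENSG00000198034), encoded on the X chromosome, was at 2094 and 1723 CPM in COPS7B INPUT, against 679 and 643 CPM in PLVX. Its footprints were at 1415 and 1429 CPM in COPS7B, against 700 and 677 CPM in PLVX. Neither assay overlapped. The footprint change was 1.05 ± 0.36 on the log2 scale and was not called (edgeR adjusted p = 0.0531). The INPUT change was 1.53 ± 0.37 (edgeR adjusted p = 0.0061). Without PLVX INPUT replicate 1 the adjusted p was 0.050, just past the threshold, and without replicate 2 it was 0.0629. In RPF RPS27A fell (log2 -1.29 ± 0.39, edgeR adjusted p = 0.0295), where 17.3% of all genes were called. It was at 79.1 and 82.5 CPM in COPS7B, against 192 and 203 CPM in PLVX, and the call was lost without any 1 of these 4 libraries.

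PLVX was set against parental HCT15, which asks how far the vector cells differ from the line they came from. In INPUT 1 of 30 rose, RPSA, where 0.67% of all genes were called, and no TE change was called among the 30 (17 of 9738 genes, 0.175%, were called). RPSA was at 903 and 805 CPM in PLVX INPUT, against 319 and 254 CPM in parental HCT15, a log2 change of 1.57 ± 0.34 (edgeR adjusted p = 0.0353) that was lost without any 1 of the 4 libraries. RPS26 was at 274 and 246 CPM in PLVX, against 9.99 and 20.7 CPM in parental HCT15 (log2 4.10 ± 0.97, edgeR adjusted p = 0.06). RPS27 was at 489 and 477 CPM in PLVX, against 137 and 86.0 CPM in parental HCT15 (log2 2.11 ± 0.57, edgeR adjusted p = 0.0985). Neither passed the test, although the groups did not overlap for either gene. In RPF RPS3A and RPS27A rose, where 10.5% of all genes were called. RPS3A was counted 10 and 10 times in PLVX, against 3 and 0 times in parental HCT15. Both calls were lost with close pairs summed and in 3 of 4 omissions of a library, all but that of HCT15 RPF replicate 1. The PLVX and COPS7B tables carry summary lines that the parental tables lack, and the part of any difference in counting in this comparison was not tested.

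**Figure D5:**
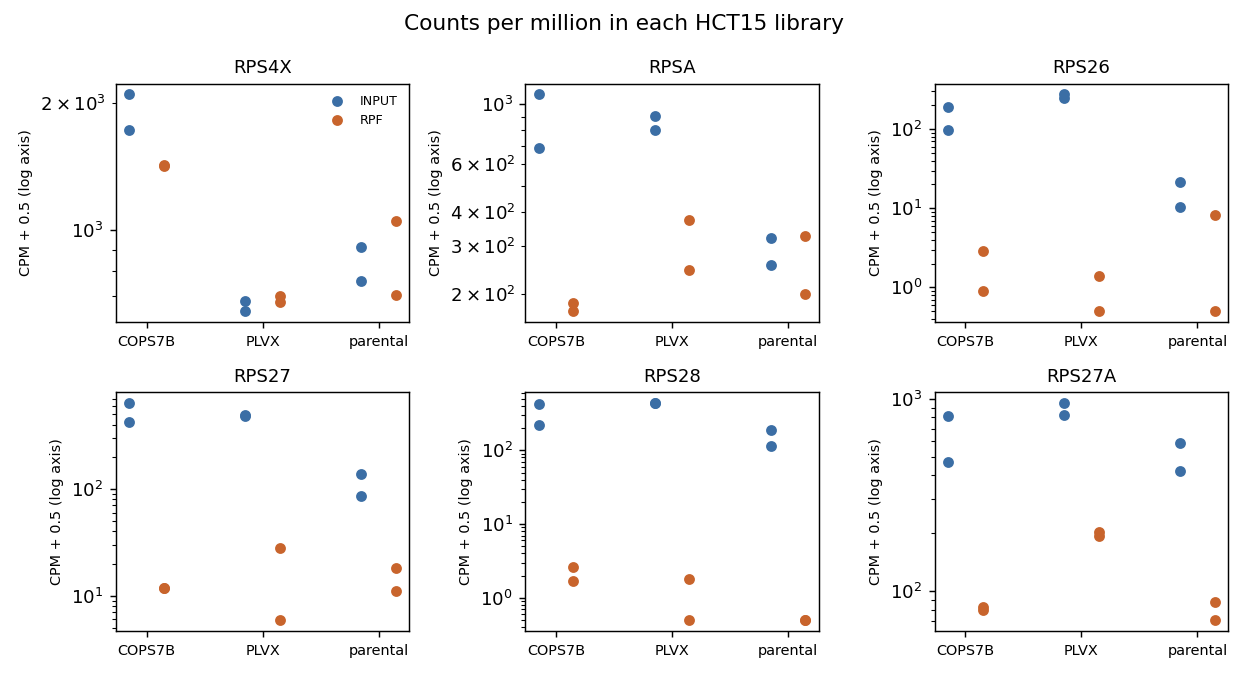
CPM plus 0.5 on a log axis for 6 genes in the 3 HCT15 forms, each dot 1 library, INPUT and RPF side by side. RPS4X is higher in COPS7B than in PLVX in both assays, and RPSA, RPS26 and RPS27 INPUT is higher in PLVX than in parental HCT15.

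Within a population, the median log2 ratio of RPF to INPUT CPM over these genes was 0.00 in HCT116, 0.10 in HCT15 and -0.93 in SW620, against -0.76 in 841-CON. The same median over all genes was -0.24, -0.11 and -0.42 in those lines, against -0.28 in 841-CON. It was -0.35 for these genes in COPS7B, against 0.06 in PLVX, beside -0.16 and -0.10 over all genes. Genes with INPUT counts that averaged under 10 or with no footprint count dropped out, which left between 28 of the 32 in 841-CON and all 32 in COPS7B. FAU had the highest ratio among the 32 in 5 of the 6 populations, and RPS21 in SW620.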

How the data were processed

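Ribosome footprints (RPF) and lysate RNA (INPUT) were sequenced in 6 populations of cultured cells, 2 libraries each. The authors deposited raw counts by Ensembl identifier. As tools, the submitters' processing notes list HTSeq 2.0.2, STAR 2.7.9 and cutadapt 3.5, with GRCh38 as the build. The sources used here name neither the strand setting nor the annotation release. Per the file lines, the PLVX and COPS7B tables count reads aligned to more than 1 place apart from genes, and the handling of such reads in the other tables is not given. The PLVX and COPS7B tables carry 5 summary lines that name no gene, which entered no library size and no test and held between 53.6% and 90.8% of all reads.

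The 20426 genes listed in both assays were scaled by trimmed means within each assay and filtered with edgeR 4.0.16 (R 4.3.3, minimum count 10 in INPUT and in RPF), which kept 11938 genes. One quasi-likelihood fit over all 24 libraries had 12 group means. TE was the interaction of assay and population, and p-values were adjusted over all genes tested, with a threshold of 0.05. The fit was tested on simulated data. CPM used the same scaled library sizes and is not comparable between genes. Alternatives were trimmed means over all libraries, none, DESeq2 1.42.0, no filter, a replicate block, close pairs summed, the compared libraries alone, and leaving out each library.

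Members, lists and tests were chosen with earlier results of these data known. Library values are given, in INPUT or RPF or both, for the 3 called genes with the largest TE and INPUT changes in each cancer line and in COPS7B against PLVX, among genes with at least 10 INPUT counts in every library compared, and for 10 genes fixed by role (RPSA, RPS6, RPS3, RPS10, RPS20, RPS26, RPS27, RPS27A, FAU and RPS19). Further genes were chosen after their values were seen. Lists of other genes could not be matched to identifiers and were not used here. Results of some single genes are not reported here, though totals over the set include them and the plots of changes leave them out.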

Additional observations from a re-analysis of the deposited data

Results flagged for a closer look

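The 3 cancer lines differed from each other in 16 of the 30 genes in INPUT RNA and in 15 of the 30 in TE, by F tests of edgeR's quasi-likelihood fit adjusted over all genes. Of all genes tested 46.0% differed in INPUT and 52.7% in TE, so both shares lay near the background, and with close pairs summed 5 genes differed in each. Among the genes reported here, the adjusted p for TE by edgeR was 9.8e-05 for RPS3A, 0.00052 for RPS21, 0.00076 for RPS15A and 0.0012 for RPS14. It was 0.0023 for RPS27, 0.003 for RPS20, 0.0033 for RPS25, 0.0049 for FAU and 0.0052 for RPS27A. It was 0.0078 for RPS13, 0.022 for RPS18, 0.023 for RPS29, 0.028 for RPS2 and 0.043 for RPS15. RPS3A had 200 and 166 footprint counts in HCT116, 3 and 0 in HCT15 and 4 and 3 in SW620. RPS15A had 130 and 104 in HCT116, 123 and 600 in HCT15 and 0 and 1 in SW620. SW620 footprint libraries were the shallowest, and the part of depth in these differences was not tested.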

How the results depend on the processing

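No single gene that passed the test changed sign under the alternatives run. Medians over the genes did change sign for TE in SW620 (between -0.51 and 0.48), HCT116 (-0.01 and 0.48) and COPS7B (-0.33 and 0.10), and for COPS7B INPUT (-0.17 and 0.31), COPS7B RPF (-0.16 and 0.12) and PLVX RPF (-0.16 and 0.15). With close pairs summed, the genes called came to 5 for the difference among the 3 cancer lines in TE and 5 in INPUT, to 3 in TE and 10 in INPUT for HCT116, to 0 in TE and 8 in RPF for HCT15, to 1 in TE for SW620, to 0 in RPF for COPS7B against PLVX, and to 0 in RPF and 0 in INPUT for PLVX against parental HCT15. With the compared libraries alone they came, for HCT15, to 0 of 27 in TE, 14 of 27 in RPF and 3 of 27 in INPUT. Of all genes 0 of 8517, 3364 of 9987 and 1761 of 9987 were called there. For SW620 1 of 26 was called in TE, against 304 of 7284 genes. For COPS7B 3 of 29 were called in RPF and 2 of 29 in INPUT, against 4226 and 3885 of 11370 genes. For PLVX 0 of 28 were called in RPF and 0 in INPUT, against 371 and 0 of 9453 genes. DESeq2 gave 2 of 30 in RPF for COPS7B, against 2161 of 11938 genes. For PLVX it gave 5 of 30 in RPF and 2 in INPUT, against 1794 and 332 of 11938 genes. Without a filter there were 2 of 32 in RPF for COPS7B and 14 in INPUT for HCT15, against 2149 and 4621 of 16979 genes. For PLVX there were then 1 of 31 in TE and 3 of 32 in INPUT, against 69 of 9953 and 249 of 16979 genes. Without trimmed-mean scaling 19 of 30 were called in INPUT for HCT15, against 4397 of 11938 genes. The median of all genes was 0.24 there, against -0.02 with the scaling. The cause of these changes was not tested.

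Leaving out each library in turn gave between 12 and 18 genes in TE and 10 and 16 in INPUT for the difference among lines. It gave 4 to 12 in TE, 19 to 20 in RPF and 15 to 21 in INPUT for HCT116, and 2 to 7, 14 to 21 and 6 to 12 for HCT15. It gave 4 to 12, 15 to 15 and 19 to 25 for SW620, 0 to 0, 0 to 0 and 0 to 1 for COPS7B, and 0 to 1, 0 to 3 and 0 to 0 for PLVX. Where 1 library remained, its variation was taken from the remaining groups. The number of calls over all genes moved between these fits as well, so the ranges do not describe a trait of this set.

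INPUT and RPF libraries of the same number did not deviate together in every population (r between -0.179 and 0.222), so the numbers do not pair the samples. The replicate block changed the count to 1 in RPF and 0 in INPUT for PLVX against parental HCT15, and moved no other total of calls by over 1.5 times. By direction it left 3 higher TE calls in HCT116, against 5, and 4 lower ones in SW620, against 7. Among the calls it ended were those of RPS16 and FAU in HCT15 INPUT and of RPS6 and RPS26 in HCT116 INPUT. A crossed pairing, chosen after seeing the data, moved none of 11 counts by that much, with 10 TE calls in HCT116, 4 in HCT15 and 11 in SW620. With all listed INPUT genes as the denominator the share of the 32 genes was 2.31% in PLVX, 2.19% in HCT116, 2.16% in SW620 and 1.54% in HCT15, against 0.753% in 841-CON, and SW620 was no longer the highest line. Depth was lowest in the SW620 footprint libraries, and its part in the results was not tested.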
